A study of Homo sapiens with 6 samples.

Results

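The mRNAs described here encode 52 proteins of the mitochondrial ribosome and were taken from 60554 gene IDs listed for each library. They were chosen by name, as nuclear genes for mitochondrial ribosomal proteins that lie outside the classic set of terminal oligopyrimidine (TOP) mRNAs. The rule uses no measured value, but the choice was made with earlier results of these data known. Contrasts of the members with all genes are therefore descriptions. All 52 IDs had a row in every library. By subunit, 27 of the genes encode small subunit proteins and 25 encode large subunit proteins. MRPS18A and MRPS30 carry small subunit symbols but are counted with the large subunit, where the uniform names mL66 and mL65 place them.

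Mitochondrial ribosomes translate the few mRNAs made from the mitochondrial genome, whose products are subunits of the respiratory chain and the ATP synthase. Their RNAs come from mitochondrial DNA, but their proteins come from nuclear genes: the mRNAs are translated on cytosolic ribosomes and the proteins are imported. Many of the proteins have a bacterial counterpart, and others exist only in mitochondrial ribosomes. The La-related protein LARP1 binds the cap and the adjoining pyrimidine stretch of TOP mRNAs, the class that includes the mRNAs of cytosolic ribosomal proteins.

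RNA was sequenced from the free 40S fraction of sucrose gradients of HCT116 cells, an established human colorectal carcinoma line described in the labels as colon epithelial cells. The 6 libraries were 2 made after immunoprecipitation with an anti-LARP1 antibody (LARP1 IP), 2 after immunoprecipitation with IgG from normal rabbit serum (IgG IP) and 2 from unselected RNA of the fraction (Input). No treatment or genetic change of the cells is labelled, and the labels call the replicates biological without naming separate cultures, so the spread that each p-value reflects may be partly technical. The line was not checked against epithelial markers, because the files give Ensembl IDs without symbols. Each library pools many cells, so more RNA per cell and more cells holding an RNA cannot be told apart.

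Library totals ran from 4135463 to 8069554 counts. The 2 most abundant genes took 87.9% and 88.6% of the Input libraries, 70.9% and 71.5% of the IgG IP libraries, and 21.3% and 26.6% of the LARP1 IP libraries. The counts of a member were smallest in Input, with medians of 25.5 and 21.5 per library. The IgG IP libraries had medians of 68.5 and 62.5, and the LARP1 IP libraries had medians of 136.5 and 74.5. Levels below are CPM, counts scaled to a common library size, after trimmed-mean (TMM) factors that set the typical gene level between libraries. A gene was called higher or lower at a Benjamini-Hochberg adjusted p under 0.05 over all genes tested with edgeR's quasi-likelihood test.

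The low-count filter kept 51 of the 52 genes. The gene left out was MRPS24 (ENSG00000062582.13), with 1 and 3 counts in the LARP1 IP libraries, 4 and 0 counts in the IgG IP libraries, and 0 and 1 counts in the Input libraries. A count of 0 allows up to 3 counts, which is 0.297 CPM in the second IgG IP library and 1 CPM in the first Input library. For 4 tested genes, MRPS11, MRPS18A, MRPS18C and MRPS28, fewer than 2 control libraries reached the limit of the filter. MRPS11, MRPS18A and MRPS18C reached it in both LARP1 IP libraries, so they were tested only through the group where they were high. MRPS11 was at 1.63 ± 0.55 over the IgG IP on the log2 scale (SE; edgeR adjusted p = 0.0774). Of the genes that passed, MRPS28 had the fewest counts, with a mean of 0.932 CPM over the 6 libraries.

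LARP1 IP and IgG IP were compared to ask which of these mRNAs the antibody recovered beyond background. In the LARP1 IP, 20 of the 51 tested mRNAs were higher than in the IgG IP and 0 were lower, against 8.54% of all 10788 tested genes higher and 2.29% lower. Among the 47 members at the filter limit in at least 2 control libraries, 19 were higher. The 20 comprised 13 of 25 tested large subunit mRNAs and 7 of 26 tested small subunit mRNAs, and no test of that difference was made. Their log2 fold changes ran from 1.37 to 2.68. Scaled to total counts outside the 2 most abundant genes in place of TMM, 2 members were called higher (MRPL11 and MRPS15) and 1 lower (MRPS5), beside 356 higher and 3992 lower of all 10788 genes. Under TMM no member was lower at an unadjusted p under 0.05 by edgeR, where 1055 of all tested genes were. DESeq2 also called 20 members higher and 0 lower, beside 891 higher and 248 lower of all 10788 genes. Of its 20 higher members, 19 were shared with edgeR.

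The genes with more reads were also taken alone. Among genes that averaged 5 CPM or more over all libraries, the LARP1 IP included, 19 of 40 members were higher. Of all genes at that level, 12.5% were higher. The average includes the group under test, so a gene could pass through high LARP1 IP values, and these counts are no separate support.

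Sequences at the annotated starts were read next, because the TOP motif sits at the first transcribed base. RefSeq start sites on GRCh38.p14 were given for 48 of the 52 genes, 9 of them with more than 1 start. MRPL13, MRPL15, MRPL21 and MRPS28 had no entry. A start was counted when its first base was C and at least 4 pyrimidines (C or T) followed on the sense strand. Such a run began at a start of 3 of the 48 members (6.25%), the small subunit genes MRPS2, MRPS27 and MRPS33. The share was 5.14% of all genes in the table and 6.24% of its protein-coding genes. Among 70 cytosolic ribosomal protein genes, matched by symbol, it was 70.0%, so the same reading picked out that class from the same table. Below, 10 bases before the start and 20 from it on are shown for the 3 members with the largest fold change over the IgG IP, for the 3 members with a run, and for RPS6, a cytosolic ribosomal protein gene that serves as a pattern and whose counts were not examined. Capitals mark the first transcribed base and any pyrimidine run that starts there with C.
MRPL11: ctagcctaacGtgaggacccttgacctctg
MRPS15: tattgcaactGcctcgattggtcgatcctg
MRPL52: gcctacttccGgctaccccggctactcctg
MRPS33: gagggcgggcCTTCCgggacgagggcgcgt
MRPS27: gttggctgttCCTTTTggtacgctccaaga
MRPS2: gggccgggttCCTCTgcgggtgggtccgga
RPS6: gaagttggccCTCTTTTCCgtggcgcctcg

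In these windows MRPL11, MRPS15 and MRPL52, the 3 with the largest fold change, start with G, and the run of RPS6 is longer than those of MRPS33, MRPS27 and MRPS2. The windows span the end of the promoter and the start of the first exon. They lie at chr11:66438829-66438858 (minus strand) for MRPL11, chr1:36464365-36464394 (minus) for MRPS15, chr14:22829877-22829906 (plus) for MRPL52, and chr7:141014933-141014962 (minus) for MRPS33. MRPS27 is at chr5:72320221-72320250 (minus), MRPS2 at chr9:135499955-135499984 (plus) and RPS6 at chr9:19380217-19380246 (minus). MRPS33 and MRPS2 each have a second RefSeq start, which begins with G. The start used in HCT116 cells was not measured here.

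MRPL11 (ENSG00000174547.13), the counterpart of the bacterial L11 protein at the base of the ribosomal stalk, had the largest log2 fold change over the IgG IP. It stood at 69.6 and 112 CPM in the LARP1 IP, 14.6 and 13.8 CPM in the IgG IP, and 22.8 and 13.9 CPM in Input. Both LARP1 IP libraries lay far above all 4 control libraries. The log2 fold change was 2.68 ± 0.44 (SE; edgeR adjusted p = 0.00168) over the IgG IP and 2.30 ± 0.44 over Input (edgeR adjusted p = 0.00733). MRPL12 (ENSG00000262814.6), the counterpart of the L7/L12 stalk protein that contacts translation factors, stood at 13.8 and 23.9 CPM in the LARP1 IP. Its control values were 4.70 and 6.63 CPM in the IgG IP and 6.69 and 3.41 CPM in Input, with no overlap. Its log2 fold change was 1.73 ± 0.46 over the IgG IP (edgeR adjusted p = 0.03) and 1.90 ± 0.50 over Input (edgeR adjusted p = 0.0401).

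MRPL37, MRPL51 and MRPL52 encode large subunit proteins with no bacterial counterpart, and all 3 mRNAs were called. MRPL37 (ENSG00000116221.15) stood at 65.1 and 105 CPM in the LARP1 IP, 19.8 and 23 CPM in the IgG IP, and 23.1 and 20.4 CPM in Input. The controls were alike and both LARP1 IP libraries were above them, by 1.99 ± 0.41 over the IgG IP and 1.96 ± 0.42 over Input on the log2 scale (SE; edgeR adjusted p = 0.00729 and 0.0129). MRPL52 (ENSG00000172590.18) stood at 20.3 and 27.8 CPM in the LARP1 IP, 5.16 and 4.16 CPM in the IgG IP, and 5.69 and 3.10 CPM in Input. No tested member had a larger log2 fold change over Input, at 2.45 ± 0.48 (SE; edgeR adjusted p = 0.00803), beside 2.36 ± 0.44 over the IgG IP (edgeR adjusted p = 0.00425). MRPL51 (ENSG00000111639.7) stood at 51.3 and 58.8 CPM in the LARP1 IP, 14 and 8.81 CPM in the IgG IP, and 23.8 and 13.6 CPM in Input. The first library of both control groups was the higher one for MRPL51. Its log2 fold change was 2.27 ± 0.44 over the IgG IP (edgeR adjusted p = 0.00522), and 1.56 ± 0.44 over Input missed the threshold (edgeR adjusted p = 0.0526).

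In the small subunit, MRPS15 (ENSG00000116898.11), the counterpart of bacterial S15, stood at 60.5 and 87.6 CPM in the LARP1 IP, 13.3 and 14.3 CPM in the IgG IP, and 19.1 and 13.6 CPM in Input. The 4 control values lay close together, far under both LARP1 IP values. The log2 fold change was 2.42 ± 0.41 (SE; edgeR adjusted p = 0.00233) over the IgG IP and 2.18 ± 0.42 over Input (edgeR adjusted p = 0.00768). DAP3 (ENSG00000132676.15), a GTP-binding protein of the small subunit also known as mS29, stood at 51.6 and 73.1 CPM in the LARP1 IP, 15.8 and 18.3 CPM in the IgG IP, and 20.1 and 22.3 CPM in Input. The IgG IP values were the lowest, below both Input values. On the log2 scale DAP3 was 1.87 ± 0.40 above the IgG IP and 1.55 ± 0.40 above Input (SE; edgeR adjusted p = 0.00888 and 0.0362).

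MRPS33 (ENSG00000090263.15), a protein found in mitochondrial ribosomes alone, stood at 19.9 and 28.6 CPM in the LARP1 IP, 4.70 and 6.14 CPM in the IgG IP, and 8.03 and 6.81 CPM in Input. On the log2 scale the fold change of MRPS33 was 2.15 ± 0.42 over the IgG IP and 1.70 ± 0.43 over Input (SE; edgeR adjusted p = 0.00543 and 0.0339). MRPS21 (ENSG00000266472.5), the counterpart of bacterial S21, differed between the 2 LARP1 IP libraries by a log2 ratio of -1.19 (first over second, with 0.5 CPM added to both). It stood at 25.1 and 58.1 CPM in the LARP1 IP, 6.17 and 11.7 CPM in the IgG IP, and 13 and 7.43 CPM in Input. The second library was the higher one in both immunoprecipitates and the lower one in Input. For MRPS21 the log2 fold change was 2.21 ± 0.51 over the IgG IP and 2.02 ± 0.53 over Input (SE; edgeR adjusted p = 0.0143 and 0.0391).

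MRPS12 and MRPS27 were higher than in the IgG IP and not called against Input. MRPS12 (ENSG00000128626.11) encodes the counterpart of S12, a protein of the decoding centre, and stood at 19.7 and 29.5 CPM in the LARP1 IP, 8.48 and 6.43 CPM in the IgG IP, and 11.4 and 9.29 CPM in Input. Its log2 fold change was 1.71 ± 0.42 over the IgG IP (edgeR adjusted p = 0.0181) and 1.25 ± 0.43 over Input (edgeR adjusted p = 0.11). MRPS27 (ENSG00000113048.16), a pentatricopeptide repeat protein, drew the most reads of any member, at 85.1 and 101 CPM in the LARP1 IP, 35.7 and 32 CPM in the IgG IP, and 37.1 and 36.2 CPM in Input. The control libraries lay within a narrow range. Its log2 fold change was 1.46 ± 0.38 over the IgG IP (edgeR adjusted p = 0.0256) and 1.34 ± 0.38 over Input (edgeR adjusted p = 0.0558).

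The other called large subunit mRNAs were MRPL9, MRPL18, MRPL20, MRPL21, MRPL22, MRPL32, MRPL33 and MRPS18A, all proteins with a bacterial counterpart. MRPL9 stood at 15.2 and 14.8 CPM in the LARP1 IP against 2.48 to 5.35 CPM in the 4 control libraries, a log2 fold change of 2.02 ± 0.44 over the IgG IP (SE; edgeR adjusted p = 0.0107). MRPL33 stood at 21 and 18 CPM in the LARP1 IP, 3.59 and 6.14 CPM in the IgG IP, and 8.36 and 7.12 CPM in Input. It was 2 ± 0.43 above the IgG IP on the log2 scale (SE; edgeR adjusted p = 0.00934) and 1.34 ± 0.44 above Input, which missed the threshold (edgeR adjusted p = 0.0971). MRPL18 and MRPL20 were alike in that both LARP1 IP libraries lay above both of each control, at 1.56 ± 0.42 and 1.59 ± 0.44 over the IgG IP (SE; edgeR adjusted p = 0.0289 and 0.0359). Over Input MRPL18 and MRPL20 were at 0.97 ± 0.42 and 0.92 ± 0.45 and were not called (SE; edgeR adjusted p = 0.209 and 0.266). MRPL22, whose bacterial counterpart lines the exit tunnel of the nascent chain, stood at 9.21 and 8.91 CPM in the LARP1 IP, 2.86 and 2.97 CPM in the IgG IP, and 6.36 and 5.57 CPM in Input. The 3 groups were separate and Input lay between the others, so MRPL22 was 1.63 ± 0.42 above the IgG IP on the log2 scale (SE; edgeR adjusted p = 0.0242) and 0.60 ± 0.43 above Input (edgeR adjusted p = 0.461). MRPL32 and MRPL21 were closest to the threshold among the called large subunit mRNAs, with MRPL32 at 1.38 ± 0.41 (SE; edgeR adjusted p = 0.0458) and MRPL21 at 1.40 ± 0.39 (edgeR adjusted p = 0.0369). The remaining called small subunit mRNA was MRPS34, a protein without a bacterial counterpart, at 20.9 and 26.9 CPM in the LARP1 IP, 9.03 and 9.4 CPM in the IgG IP, and 14.7 and 13 CPM in Input, with 1.37 ± 0.39 over the IgG IP (SE; edgeR adjusted p = 0.039). Just outside the threshold lay MRPS23 at 1.30 ± 0.40 (SE; edgeR adjusted p = 0.0512) and MRPL15 at 1.43 ± 0.44 (edgeR adjusted p = 0.0528).

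**Figure D1:**
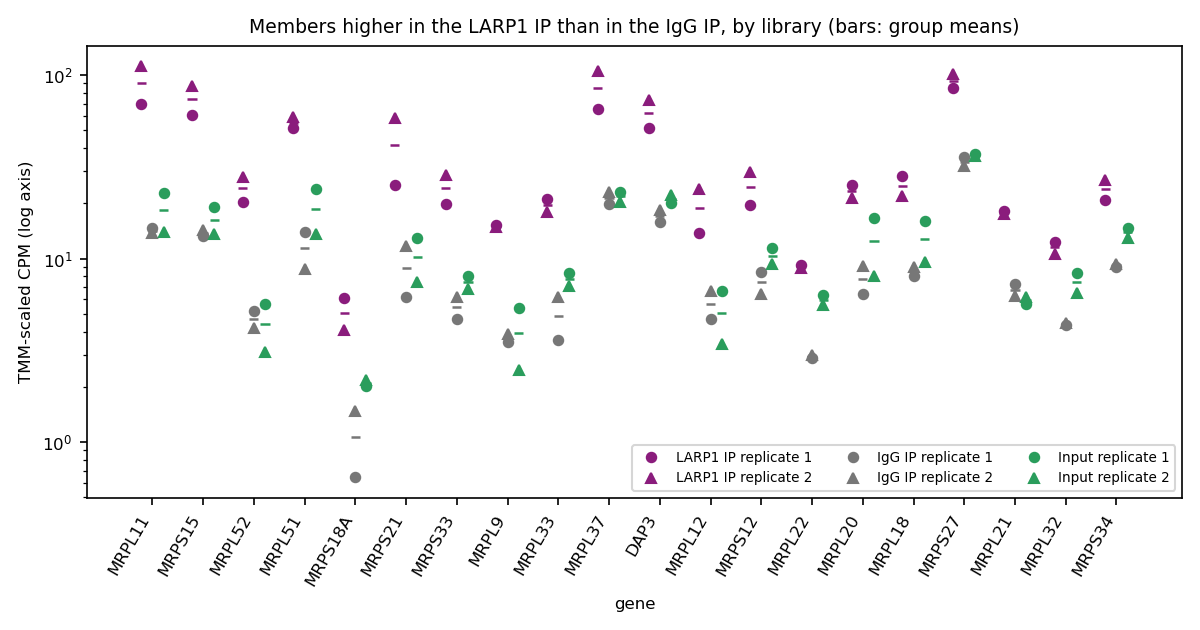
TMM-scaled CPM (log axis) of the 20 mRNAs called higher in the LARP1 IP than in the IgG IP, with 1 point per library, 2 libraries per group and short bars for group means. For each of the 20 genes both LARP1 IP points lie above both IgG IP points, and MRPL11 reaches 112 CPM against 14.6 CPM in the higher IgG IP library. The genes shown were picked by this same comparison, and 27.3% of all tested genes were separated in this direction.

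Humans have 3 homologues of the bacterial S18 protein among these genes. MRPS18A (ENSG00000096080.11) stood at 6.07 and 4.08 CPM in the LARP1 IP, 0.645 and 1.48 CPM in the IgG IP and 2.01 and 2.17 CPM in Input, and its log2 fold change over the IgG IP was 2.26 ± 0.57 (SE; edgeR adjusted p = 0.0227). This rested on 7 and 15 IgG IP counts, and over Input the change was 1.29 ± 0.61 (edgeR adjusted p = 0.245). MRPS18B (ENSG00000204568.11) stood at 23.6 and 41.4 CPM in the LARP1 IP, 15.8 and 13.5 CPM in the IgG IP and 13 and 14.9 CPM in Input, a log2 fold change of 1.14 ± 0.41 over the IgG IP (SE; edgeR adjusted p = 0.0985). MRPS18C (ENSG00000163319.10) stood at 2.72 and 5.01 CPM in the LARP1 IP, 1.29 and 0.99 CPM in the IgG IP and 2.68 and 1.24 CPM in Input, a log2 fold change of 1.72 ± 0.60 over the IgG IP (SE; edgeR adjusted p = 0.0882). The paralogs were not tested against each other.

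The direction was also counted without regard to the calls. Under TMM 50 of the 51 tested members had a positive log2 fold change over the IgG IP, against 47.4% of all tested genes, and with total counts outside the 2 most abundant genes 26 did. The members' median was 1.24 (quartiles 0.82 and 1.72), against a median of -0.06 over all genes tested. The median member stood at percentile 86.9 of all genes ranked by log2 fold change. Both LARP1 IP libraries were above both IgG IP libraries for 46 members, where 27.3% of all tested genes were so. Among the 47 members at the filter limit in at least 2 control libraries it was 43. The negative value was that of MRPS5 (ENSG00000144029.11), the counterpart of S5, which stood at 7.64 and 5.38 CPM in the LARP1 IP, 10.7 and 6.14 CPM in the IgG IP, and 7.03 and 5.57 CPM in Input. The groups of MRPS5 overlapped, and its log2 fold change was -0.36 ± 0.44 (SE; edgeR adjusted p = 0.664). MRPS28 and MRPL16 were the next lowest, at 0.26 ± 0.72 and 0.31 ± 0.47 (SE; edgeR adjusted p = 0.865 and 0.731).

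By subunit, the median log2 fold change over the IgG IP was 1.40 for the large subunit and 1.13 for the small subunit. By origin, it was 1.34 for the 14 mitochondria-specific proteins and 1.14 for the 37 tested proteins with a bacterial counterpart, with 7 and 13 called. The ranges of all 4 groups overlapped widely, and no difference between them was tested.

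**Figure D2:**
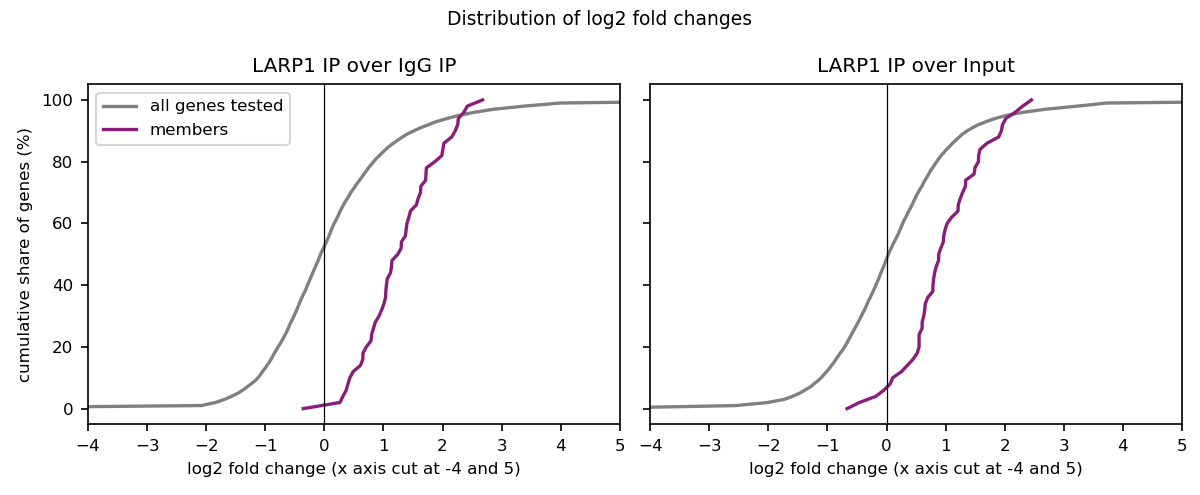
Cumulative share of genes (y axis, %) by log2 fold change (x axis) of the LARP1 IP over the IgG IP and over Input, for the 51 tested members and for all 10788 tested genes, with the LARP1 IP libraries common to both panels. The members' curve lies to the right over most of its length, with medians of 1.24 and 0.88 against -0.06 and 0.03, and crosses the other near the top, where all genes reach higher values. The scaling is TMM, and with total counts outside the 2 most abundant genes the members' medians move to 0.02 and -0.06.

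The calls over the IgG IP depended on which libraries entered the fit. A fit of the 4 immunoprecipitate libraries alone called 11 members and 681 of all 10654 genes, and the fit without the first IgG IP library called 8 members and 579 of all 11362 genes. With all libraries it was 20 members and 921 of all 10788 genes, so calls over all genes were fewer in both. Leaving out the second IgG IP library gave 13 members (775 of all 11354 genes) and leaving out the second LARP1 IP library gave 12 (578 of all 11373 genes). Without either Input library it was 11 members, with 676 of all 11562 genes called without the first and 681 of all 11621 without the second. MRPL11, MRPS15, MRPL37, MRPL51, MRPL52 and MRPS33 were called in all 6 fits that left out 1 library, by edgeR and by DESeq2. MRPL21 and MRPL32 were called in 0 of these 6 fits by either tool.

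LARP1 IP and Input were compared to ask which of these mRNAs stood higher in the immunoprecipitate, relative to the typical gene. Here 10 of the 51 tested members were higher and 0 were lower, against 4.63% of all tested genes higher and 1.52% lower. The 10 were MRPL9, MRPL11, MRPL12, MRPL21, MRPL37, MRPL52, MRPS15, MRPS21, MRPS33 and DAP3. Among genes that averaged 5 CPM or more over all libraries, the LARP1 IP included, the count was 10 of 40. Of all genes at that level, 7.37% were higher. Each of the 10 also passed against the IgG IP, so 10 of 51 members were called against both controls, as were 4.37% of all tested genes. The comparisons share the LARP1 IP libraries.

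Over Input the members' median log2 fold change was 0.88 (quartiles 0.58 and 1.41), against 0.03 for all genes tested, and 47 of 51 were positive, against 51.5% of all genes. With total counts outside the 2 most abundant genes the median was -0.06, 24 were positive and 0 were called. Both LARP1 IP libraries were above both Input libraries for 41 members, where 28.8% of all tested genes were so. Among the 47 members at the filter limit in at least 2 control libraries it was 37. The subunits had medians of 0.88 (large) and 0.92 (small). No member was lower at an unadjusted p under 0.05 by edgeR, where 859 of all 10788 tested genes were. DESeq2 called 13 members higher and 0 lower, beside 535 higher and 197 lower of all tested genes.

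MRPL21 (ENSG00000197345.12), called against both controls, stood at 18.2 and 17.4 CPM in the LARP1 IP, 7.28 and 6.23 CPM in the IgG IP and 5.69 and 6.19 CPM in Input. The Input values rested on 17 and 20 counts. Its log2 fold change over Input was 1.58 ± 0.42 (SE; edgeR adjusted p = 0.0424). MRPL9 rested on 16 and 8 Input counts, with 1.94 ± 0.48 (SE; edgeR adjusted p = 0.0298). MRPS16, at 1.48 ± 0.41 (SE; edgeR adjusted p = 0.0517), and MRPL51 lay just outside the threshold.

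At the low end, 3 of the 51 tested members had both LARP1 IP libraries below both Input libraries. Of all 10788 tested genes, 2457 were so. MRPS17 (ENSG00000239789.5), the counterpart of S17, stood at 3.98 and 2.78 CPM in the LARP1 IP and 4.68 and 6.19 CPM in Input. MRPS17 had a log2 fold change over Input of -0.67 ± 0.51 (SE; edgeR adjusted p = 0.499). MRPS30 (ENSG00000112996.9), a large subunit protein despite its symbol, stood at 11.9 and 9.28 CPM in the LARP1 IP, 7.37 and 7.82 CPM in the IgG IP, and 14.4 and 14.9 CPM in Input. Input was highest and the IgG IP lowest for MRPS30, with a log2 fold change of -0.46 ± 0.40 against Input and one of 0.49 ± 0.40 against the IgG IP (SE; edgeR adjusted p = 0.565 and 0.481). MRPL19 (ENSG00000115364.13) had the same order, with 8.47 and 8.54 CPM in the LARP1 IP, 5.07 and 4.75 CPM in the IgG IP, and 9.03 and 10.2 CPM in Input. It was at -0.18 ± 0.41 against Input (SE; edgeR adjusted p = 0.854). None of these values passed the test, and with total counts all 3 turned positive, MRPS17 to 1.07, MRPS30 to 1.29 and MRPL19 to 1.53.

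By edgeR, leaving out either Input library left 0 genes called over Input, members or others, of 11562 and 11621 tested. The members' median stayed positive, at 1.17 without the first Input library and 0.78 without the second. Leaving out the second LARP1 IP library left 3 members and 237 of all 11373 genes. DESeq2 called 8 members (355 of all genes) without the first Input library, 3 (247) without the second and 4 (246) without the second LARP1 IP library.

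**Figure D3:**
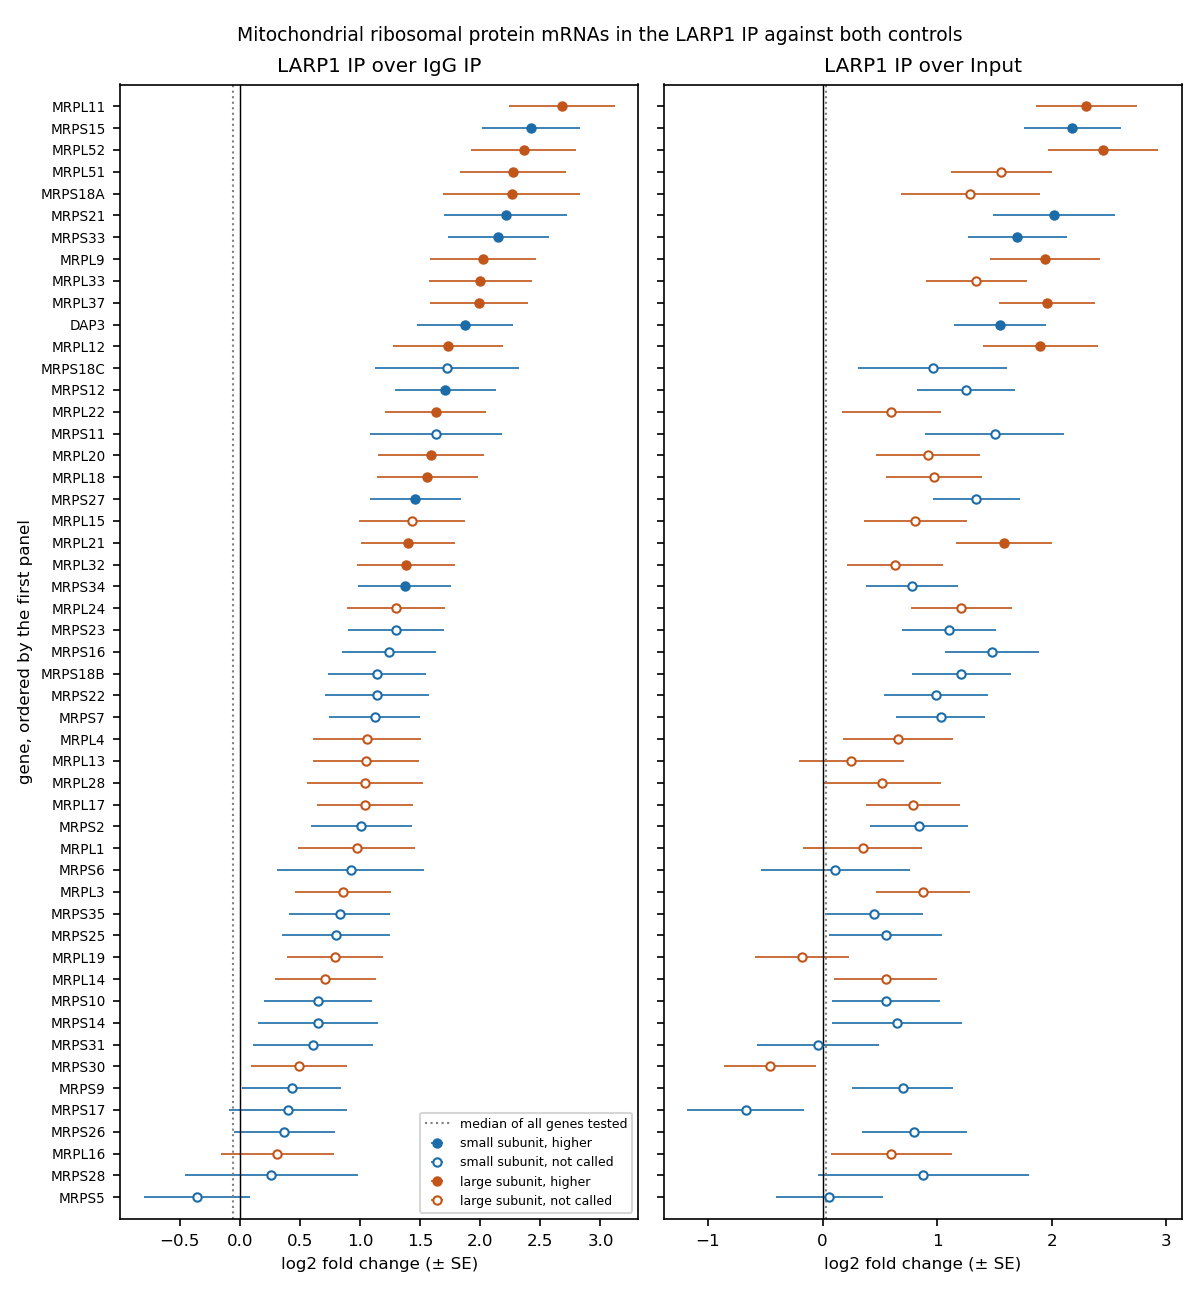
Log2 fold change with its SE (x axes) of the 51 tested members over the IgG IP and over Input, ordered by the first panel, with filled points for genes called higher and colours for the subunit. Over the IgG IP all but MRPS5 lie above 0, from -0.36 to 2.68, and over Input the range is -0.67 to 2.45. Both panels share the LARP1 IP libraries and use TMM scaling, and with total counts outside the 2 most abundant genes 25 and 27 members fall below 0.

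The IgG IP and Input were compared to see how the background itself treated these mRNAs. By edgeR 0 of 51 members were higher and 0 were lower, as for all tested genes, with 0% higher and 0% lower. At an unadjusted p under 0.05, 3 members were lower in the IgG IP (MRPS30, MRPL19 and MRPL22) and 0 were higher. DESeq2 called 0 members but gave no adjusted p to 33 of them. Over all 10788 tested genes, edgeR gave 725 an unadjusted p under 0.05, of which 341 were lower in the IgG IP and 384 higher. DESeq2 called 19 of all genes higher and 19 lower. The members' median log2 fold change was -0.25 against 0.01 for all genes, with 40 of 51 negative, and with total counts it turned to 1.27 against 1.51. The large subunit had a median of -0.52 and the small subunit one of -0.18. Log2 fold changes ran from -1.07 (MRPS17) to 0.62 (MRPS28).

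TMM sets each gene against the typical gene, so a shift shared by most genes does not appear in these fold changes. Shares of the counts were therefore computed as well. As a share of all counts, the 52 genes took 0.186% and 0.164% of the LARP1 IP libraries. They took 0.0605% and 0.0486% of the IgG IP libraries, and 0.0236% and 0.0219% of the Input libraries. Outside the 2 most abundant genes, their share was 0.253% and 0.208% for the LARP1 IP. The share was 0.208% and 0.171% for the IgG IP and 0.208% and 0.181% for Input. On that second base the lower LARP1 IP library was level with the highest control libraries. The group means were 0.231% ± 0.032, 0.189% ± 0.026 and 0.194% ± 0.019 (SD, n = 2 each). No permutation test of 2 libraries against 2 can give a two-sided p below 0.33.

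**Figure D4:**
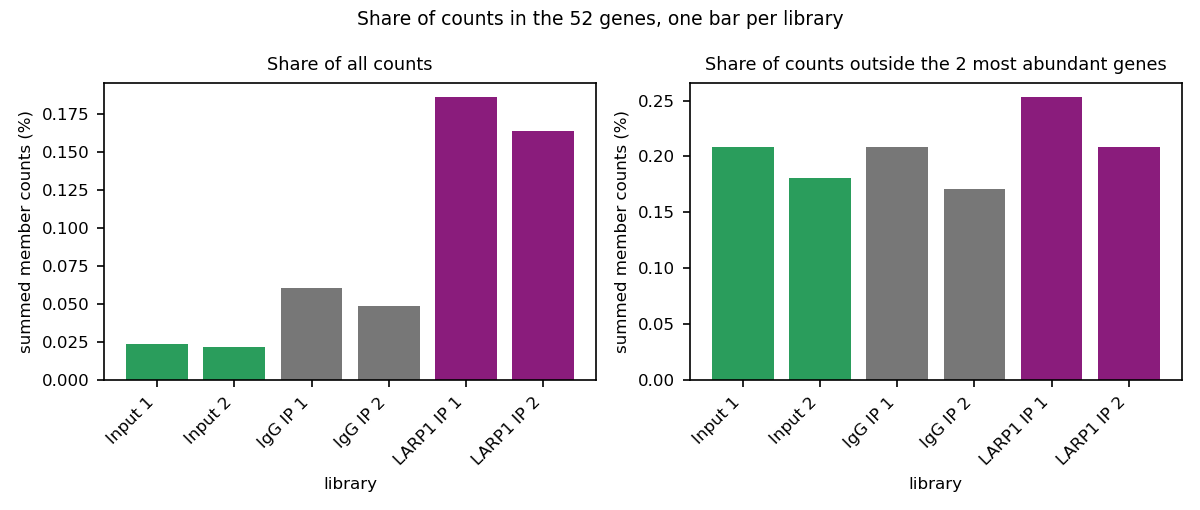
Summed counts of the 52 genes as a percentage (y axes from 0) of all counts and of the counts outside the 2 most abundant genes, with 1 bar per library. The LARP1 IP bars stand at 0.164% and 0.186% in the first panel, above every control bar, and at 0.208% and 0.253% in the second, where control bars reach 0.208%.

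Scaled to the counts outside the 2 most abundant genes, the members' median log2 fold change over the IgG IP was 0.02, and that over Input was -0.06, while the medians of all genes were -1.24 and -0.92. The lead of the members over the typical gene was 1.26 and 0.86, beside 1.31 and 0.85 under TMM. A change of scaling moves all genes by nearly the same amount, so the lead had to stay nearly the same. On that scale 26 members were positive over the IgG IP, and MRPL11 and MRPS15 were called higher. The 20 members called under TMM ran from 0.15 to 1.42 there, and from 1.28 to 2.82 under the other 3 scalings tried. These members were chosen for high values under TMM, and the scalings move genes nearly alike. Their sign under another scaling is therefore no separate support. The scalings differ in where the zero lies, and no external standard was used here to set it.

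**Figure D5:**
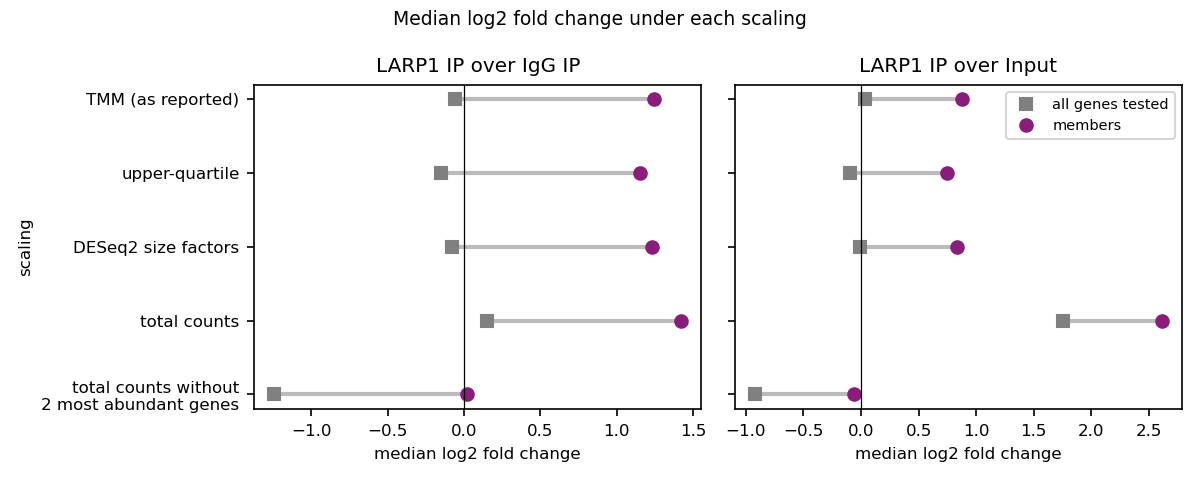
Median log2 fold change (x axes) of the 51 tested members (circles) and of all genes tested (squares) under 5 scalings (rows), for the LARP1 IP over the IgG IP and over Input. The members lie to the right of all genes in every row, by a gap that is nearly fixed because a scaling moves all genes alike. Between TMM and total counts outside the 2 most abundant genes, the members move against 0 from 1.24 to 0.02 in the first panel. In the second panel they move from 0.88 to -0.06.

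The pyrimidine run at the start, shown above for MRPS33, MRPS27 and MRPS2, was set beside the calls as a description, with no test. Among members called higher than the IgG IP that had a start entry, 2 of 19 had a run (MRPS27 and MRPS33), as did 1 of 28 uncalled members, or 10.5% and 3.57%. The first base was C at 4 of the 24 starts of called members (16.7%) and at 1 of the 35 starts of uncalled members (2.86%). It was C at 14.7% of all starts in the table and at 11.4% of those of protein-coding genes. MRPS2, which has a run, stood at 22.6 and 40.3 CPM in the LARP1 IP, 14.9 and 16.2 CPM in the IgG IP, and 21.1 and 13.9 CPM in Input, with a log2 fold change of 1.01 ± 0.42 over the IgG IP (SE; edgeR adjusted p = 0.155). Runs of the same kind beginning anywhere within 25 bases of a start were common, and 68.8% of members with an entry had one. So did 61.3% of all genes in the table, 62.1% of its protein-coding genes and 92.9% of cytosolic ribosomal protein genes. These counts describe letters in a window, and no binding site was measured.

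Levels of the members kept their order between the libraries of a group. The Spearman correlation of member levels between the 2 libraries was 0.934 in the LARP1 IP, 0.909 in the IgG IP and 0.891 in Input (n = 51 genes each), a description across genes of differing length and depth. The median member differed between libraries by 0.35 on the log2 scale in the LARP1 IP, against 0.53 for all genes tested. With 0.5 CPM added to both libraries, MRPS6 and MRPL1 had the highest log2 ratios of the first LARP1 IP library over the second, at 1.17 each. MRPS10 (ENSG00000048544.5) was close behind, at 27.5 and 12.8 CPM in the LARP1 IP beside 16.1 and 9.70 CPM in the IgG IP. Its LARP1 IP values overlapped the control range, and its log2 fold change over the IgG IP was 0.65 ± 0.45 (SE; edgeR adjusted p = 0.405). Across the 51 tested members, the level in the IgG IP and the log2 fold change over it had a Spearman rho of 0.17, and the level in Input and the change over Input one of 0.26, each pair of values sharing libraries.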

How the data were processed

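The authors deposited raw read counts per gene, 1 table per library, neither normalised nor pooled. The submitters' processing notes name CASAVA 1.8, Bowtie2, TopHat2 2.1.1, featureCounts, Subread 1.20.6 and GRCh38. Not given in the sources used here were the annotation release, strand setting and treatment of multi-mapping reads, so members' reads may be shared with pseudogenes or overlapping genes. Members and lists were chosen with earlier results of these data known. Symbols were paired with IDs in the order of the member list, a pairing that no table used here could check. The gene table (RefSeq, GRCh38.p14) paired 0 Ensembl IDs, so the planned lists of other mitochondrial translation genes, cytosolic ribosomal proteins and cell type markers were not analysed by counts.

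All 6 libraries entered 1 edgeR 4.0.16 quasi-likelihood fit in R 4.3.3 (filterByExpr minimum count 10, TMM, group as the only term, prior count 0.125, 3 residual degrees of freedom), with Benjamini-Hochberg adjustment over 10788 genes. SE is the log2 fold change over the square root of F. The fit was tested on simulated data. DESeq2 1.42.0, other scalings, filters, fits of 4 libraries, a replicate block and each library left out were alternatives. The restriction to 5 CPM was added after seeing the data. Named were members past the threshold (up to 12 a direction by fold), the 5 with most reads, the 3 highest and lowest per comparison, those near the filter, the MRPS18 paralogs, DAP3, MRPS12 and MRPL12. MRPL18, MRPL20, MRPL32, MRPS34, MRPL15, MRPS23, MRPS16, MRPS10, MRPL1, MRPS6 and MRPS2 were named after their values were seen.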

Additional observations from a re-analysis of the deposited data

How the results depend on the processing

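Under DESeq2 and the filter at 50 counts, each count of called members stayed within 1.5 times its main value. With 2 libraries per group and median member counts of 25.5 and 21.5 in Input, calls over Input rest on few reads. Upper-quartile factors called 5 members over Input (419 of all 10788 genes), the same 5 over both controls, and gave a median log2 fold change over the IgG IP of 1.15. Total counts called 50 members higher over Input (6550 of all 10788 genes), 24 higher in the IgG IP than in Input (5808 of all genes) and 22 over both controls (1004 of all genes). Their medians were 1.42 over the IgG IP, 2.61 over Input and 1.27 for the IgG IP over Input. They turned all 4 negative values over Input, and MRPS30 (1.29), MRPS31 (1.69) and MRPL19 (1.53), but not MRPS17 (1.07), were then called higher. They also turned all 40 negative values of the IgG IP over Input, of which 14 were then called higher: MRPS2 (1.36), MRPS7 (1.41), MRPS15 (1.28), MRPS21 (1.30), MRPS22 (1.40), MRPS23 (1.30), MRPS27 (1.41), DAP3 (1.19), MRPL9 (1.44), MRPL11 (1.16), MRPL14 (1.33), MRPL17 (1.27), MRPL24 (1.43) and MRPL37 (1.49). With total counts outside the 2 most abundant genes, edgeR called 2 members higher than the IgG IP (MRPL11 and MRPS15) and 1 lower, MRPS5 at -1.52 (edgeR adjusted p = 0.0411). That scaling called 0 members over Input (184 higher of all genes) and 0 over both controls (174), with medians of 0.02 and -0.06. These scalings set the zero elsewhere by construction. Without a low-count filter the median over the IgG IP was 1.19. The fit of 4 libraries called 11 over the IgG IP, and the cause was not tested.

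Same-numbered libraries deviated together most clearly for the IgG IP and LARP1 IP (r = 0.519). The link was weaker for the IgG IP and Input (r = 0.271) and weakest for Input and the LARP1 IP (r = 0.134). The labels give these libraries only a number. With a replicate block, 33 members were called over the IgG IP, 20 over Input and 20 over both controls, including all 20 and all 10 called without it. Calls over all genes rose too, to 1526, 1083 and 938 of 10788 from 921, 499 and 471.

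Leaving out 1 library at a time in edgeR gave 8 to 17 members over the IgG IP, 0 to 12 over Input and 0 to 11 over both controls. The medians ran from 1.13 to 1.37, from 0.78 to 1.17, and from -0.45 to -0.13 for the IgG IP over Input. Where a group kept 1 library, it is assumed to vary like the others. Fits with DESeq2, chosen after seeing the data, called 9 members over the IgG IP without the first IgG IP library (median 1.36), 9 without the second (1.11), 11 without the first LARP1 IP library (1.35) and 9 without the second. Over Input, DESeq2 called 4 without the second LARP1 IP library and 3 without the second Input library, with the same 4 and 3 over both controls. Without the first Input library the DESeq2 median over Input was 1.14, and without the second the median of the IgG IP over Input was -0.52. The cause of these changes beyond the loss of a library was not tested.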
